A study of Homo sapiens with 30 samples.

Results

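ERK2 ChIP-seq maps where the kinase ERK2 is crosslinked to chromatin, and this account concerns the ERK2 sites found both in RWPE1-vector and in RWPE1-ERG cells. A shared site was a peak of the RWPE1-ERG list on chr1 to chr22 or chrX that overlapped a peak of the RWPE1-vector list by at least 1 bp. Of the 5721 RWPE1-ERG peaks, 875 were shared (15.3%, 95% Wilson interval 14.4 to 16.3%), and they met 880 of the 41276 RWPE1-vector peaks (2.13%, 2.00 to 2.28%). The members were thus chosen by the presence of a peak in both lists, so peak heights and widths are given only as description, with no test. Wilson intervals throughout cover counting error only.

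RWPE1 is an immortalized line of normal prostate epithelium, grown here in medium that contained EGF. For the ERK2 ChIP, RWPE1-vector cells by their labels carried the empty retrovirus pQCXIH, whereas the paper calls the line wild-type RWPE1. The labels were followed here. RWPE1-ERG cells carried pQCXIH-ERG with ERG isoform 1. ERG is the ETS transcription factor that gene fusions turn on in prostate cancer. Each line gave 1 ERK2 library made from pooled ChIP DNA, so there was no replicate and no test between lines. Further libraries came from cells with myristoylated AKT (mAKT, from pBabe-Puro-Myr-AKT) with or without ERG, from cells with the phosphomimetic ERG S96E, and from VCaP, a prostate cancer line with a TMPRSS2/ERG fusion, treated with DMSO. In the RNA-seq and ATAC-seq, lines without mAKT carried empty pBabe-Puro. All RWPE1 lines were transduced and drug-selected.

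ERK2 is the last kinase of the Ras/RAF/MEK cascade, and in the nucleus it phosphorylates ETS factors, the AP-1 proteins of the FOS and JUN families and other regulators. The genes that recur below fall into groups with known roles. The spliceosomal U1, U2, U4, U5, U11, U12 and U4atac RNAs and the nucleolar U3, U8 and U13 RNAs are short noncoding RNAs that RNA polymerase II transcribes from their own promoters, whereas U6, 7SK, 7SL, Y and vault RNAs and the RNase P RNA RPPH1 are products of RNA polymerase III. Replication-dependent histone genes are copied in S phase into mRNA that lacks a poly(A) tail.

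U1 genes held more shared sites than any other small RNA family, so the U1 sequence is shown first. The commonest U1 copy is printed as DNA, 5′ to 3′, with the stretch that pairs with the 5′ splice site in capitals, for RNU1-1 at chr1:16840617-16840780 on the minus strand of hg19.
RNU1-1: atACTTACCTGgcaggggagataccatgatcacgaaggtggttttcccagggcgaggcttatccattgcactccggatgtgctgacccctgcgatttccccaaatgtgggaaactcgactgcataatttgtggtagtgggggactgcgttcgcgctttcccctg

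A shared site lay within 1 kb of 25 annotated U1 genes, of which 14 had the length of this copy, 164 bases. The sequence was identical in 7 of them, which are RNU1-1, RNU1-2, RNU1-3, RNU1-4, RNVU1-18, RNU1-27P and RNU1-28P, and RNVU1-7 and RNVU1-9 each differed from it at 1 base. The capital stretch was present in 13 of the 25. Reads from identical copies cannot be assigned to 1 copy, so the height at a single U1 gene is uncertain, and the same holds for other small RNA families with near-identical copies.

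The AP-1 sequence TGACTCA or its reverse complement TGAGTCA stood near the summit of the following 6 open shared sites, the highest of that kind. Each window is the plus strand of hg19, 67 bases long, with the AP-1 sequence in capitals.
MIR21, chr17:57920641-57920707: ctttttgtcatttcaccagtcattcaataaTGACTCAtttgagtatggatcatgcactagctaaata
KRT7, chr12:52635108-52635174: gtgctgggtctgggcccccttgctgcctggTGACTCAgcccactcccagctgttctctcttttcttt
SQSTM1, chr5:179247525-179247591: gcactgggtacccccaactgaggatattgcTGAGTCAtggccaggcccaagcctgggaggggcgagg
HHAT, chr1:210547723-210547789: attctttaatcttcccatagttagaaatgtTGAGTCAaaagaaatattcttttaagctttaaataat
MPRIP, chr17:16914537-16914603: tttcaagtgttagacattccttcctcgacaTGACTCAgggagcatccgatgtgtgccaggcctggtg
LAMA5, chr20:60925152-60925218: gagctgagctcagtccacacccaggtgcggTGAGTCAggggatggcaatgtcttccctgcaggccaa

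By the annotation, the windows of KRT7, SQSTM1, HHAT and LAMA5 lie within those genes and outside exons, so in introns. The MIR21 window lies in no gene, 3′ of VMP1 and of MIR21, a growth-associated microRNA, and the MPRIP window lies in no gene either. The AP-1 sequence was 7 bp from the summit at MIR21 (fold enrichment over input 11.9 in RWPE1-ERG and 7.19 in RWPE1-vector cells), 21 bp in KRT7 (11.4 and 3.99) and 25 bp in LAMA5 (5.65 and 6.77). It was 70 to 73 bp away at the other 3 sites. The HHAT site also lies within 1 kb of the U5 pseudogene RNU5A-8P.

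An ETS sequence, AGGAAGTG or CGGAAGTG, is shown for 4 shared sites that were open in RWPE1-ERG cells, in capitals and as its reverse complement where the plus strand carries that. The LGR6 and SET windows also hold GGAAGTGA, in which the ETS core runs into an AP-1 half-site, and the other windows do not.
LGR6, chr1:202253049-202253116: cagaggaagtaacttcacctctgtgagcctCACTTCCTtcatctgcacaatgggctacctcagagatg
SET, chr9:131447020-131447087: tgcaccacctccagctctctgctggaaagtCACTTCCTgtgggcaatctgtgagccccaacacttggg
LAMA5, chr20:60933451-60933518: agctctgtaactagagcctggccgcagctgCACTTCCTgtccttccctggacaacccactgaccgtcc
NEAT1, chr11:65195917-65195984: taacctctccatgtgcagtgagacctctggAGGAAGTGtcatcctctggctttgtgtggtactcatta

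The LGR6, SET and LAMA5 windows are intronic and the NEAT1 window lies in an exon of that long noncoding RNA. The ETS sequence was 30 bp from the summit in LGR6 and NEAT1, 73 bp in LAMA5 and 89 bp in SET. The site in LGR6, a receptor for R-spondins, had a fold enrichment over input of 6.25 in RWPE1-ERG and 4.47 in RWPE1-vector cells and also met an ERG peak of the line with ERG and mAKT.

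The depth of the libraries differed. After the authors' filters the RWPE1-ERG library held 15020233 ChIP reads, with 9675359 in its input. The RWPE1-vector library held 8393459, with 15658943 in its input. ERG, the transduced gene, was at 0.264 FPKM (fragments per kilobase of transcript, scaled to library size and pooled by the authors over 3 libraries) in vector, 358 in ERG, 0.435 in mAKT and 328 in ERG+mAKT cells. All 4 lines had high levels of the basal keratin KRT5 (1169.8 to 3642 FPKM) and of the luminal keratin KRT8 (622 to 1769 FPKM), while the luminal marker KLK3 was listed at 0 in all 4.

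The shared sites had a median fold enrichment of 3.70 in the RWPE1-ERG list, and the vector peaks they overlapped had a median of 3.69. The medians were 3.31 for the other 4845 RWPE1-ERG peaks and 3.08 for the 40385 vector peaks that met no RWPE1-ERG peak. Median widths were 296, 216 and 201 bp in the same order, so a shared site offered more bases for an overlap with any other feature. A single vector peak was met by 823 sites, 50 sites met 2 and 2 sites met 3, and 45 vector peaks met more than 1 site. The summit lay inside the vector peak at 581 sites (66.4%, 63.2 to 69.5%), and both summits were within 100 bp at 399 sites (45.6%, 42.3 to 48.9%). Across sites, the fold enrichments of both lists had a Spearman correlation of 0.34 (n = 875), or 0.23 for the 805 sites away from small RNA genes. These points share their libraries and neighbouring sites can share a vector peak. The RWPE1-ERG value was the higher at 464 sites and the vector value at 411.

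**Figure D1:**
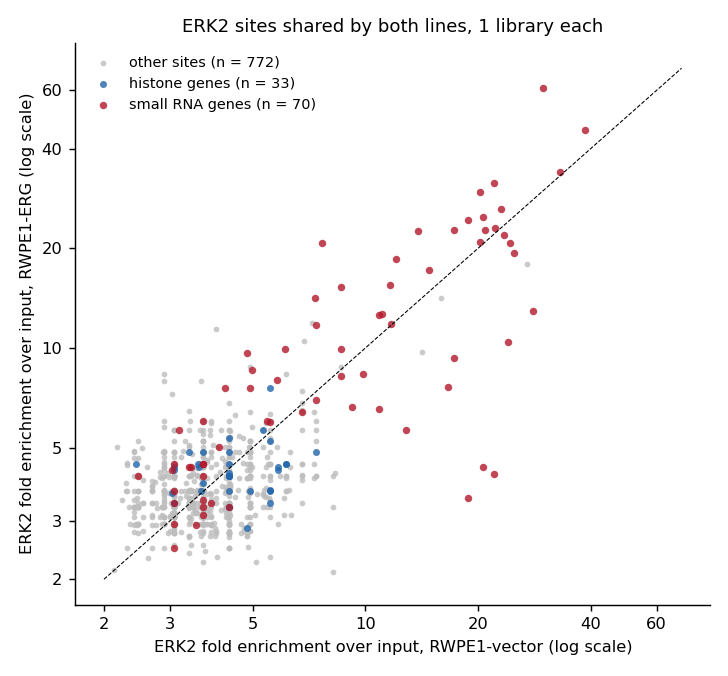
Fold enrichment of ERK2 ChIP over input at each of the 875 shared sites in RWPE1-vector (x axis) and RWPE1-ERG cells (y axis), both on log scales, with 1 library a line. Points at small RNA genes (red, n = 70) make up 24 of the 26 sites with at least 10-fold enrichment in both lists, points at histone genes (blue, n = 33) stay below 8, and the dashed line marks equal values.

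The rule turned on single bases at its edge. The least overlap was 1 bp at a site near LINC00111, chr21:43054589-43054827, with fold enrichments of 3.17 in RWPE1-ERG and 3.08 in RWPE1-vector cells. Sites near CROCC (4.16 and 22.0) and BRMS1 (2.93 and 3.69) were inside by 2 bp. Just outside were peaks near ZMYND8 (1 bp from a vector peak, 3.50 and 3.55), TGFA (2 bp, 3.40 and 2.46) and the basal keratin gene KRT5 (3 bp, 3.31 and 5.30).

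Small RNA genes stood within 1 kb of 70 shared sites, 8.00% (6.38 to 9.99%), against 1.16% of the other RWPE1-ERG peaks and 0.607% of the vector-only peaks. Histone genes were within 1 kb of 33 further sites, 3.77% (2.70 to 5.25%), against 0.495% and 0.111%. The start of a protein-coding gene was within 1 kb of another 170 sites, 19.4% (16.9 to 22.2%), against 16.6% and 3.75%. A protein-coding gene was overlapped, with the summit outside its exons and thus mostly in introns, by 30.7% of the shared sites, 38.3% of the other RWPE1-ERG peaks and 42.1% of the vector-only peaks, and 17.5%, 21.9% and 33.1% touched no gene. Exons of protein-coding genes held the summit of 79 sites and long noncoding RNA genes 95, and 6 sites were at other genes. With 1 library a line these shares were compared without a test.

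**Figure D2:**
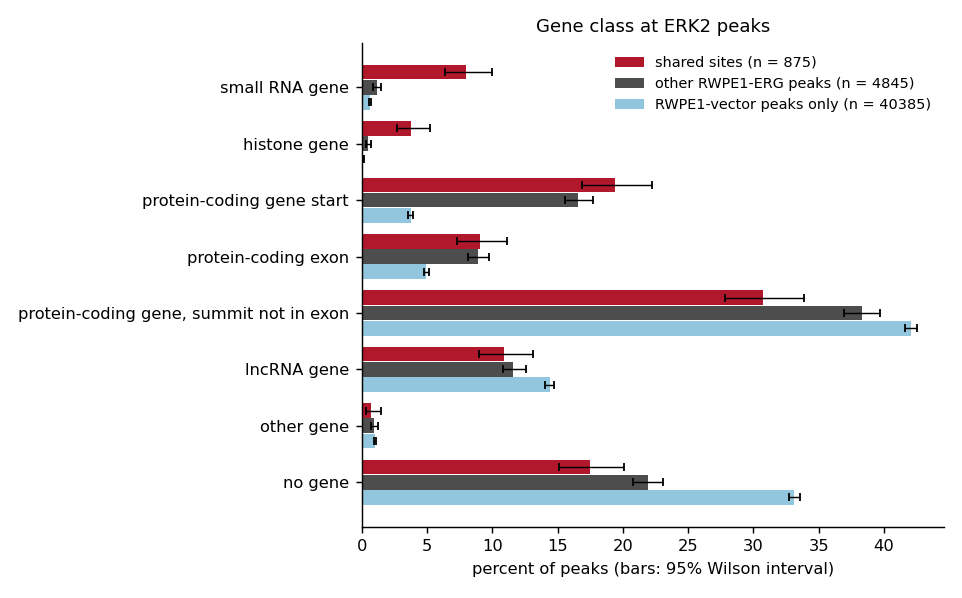
Percent of peaks in each gene class for the 875 shared sites (red), the other 4845 RWPE1-ERG peaks (black) and the 40385 vector-only peaks (light blue), each peak counted in the first class that applies from top to bottom, with 95% Wilson intervals as bars. Small RNA genes take 8.00%, 1.16% and 0.607% and histone genes 3.77%, 0.495% and 0.111%.

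The share at small RNA genes depended on the width of the site. Of the 70 sites, 52 overlapped the RNA gene itself (5.94% of shared sites, against 0.248% of the other RWPE1-ERG peaks), and among peaks under 250 bp the 1 kb share was 2.56% (1.30 to 4.98%) for shared sites and 1.10% (0.791 to 1.52%) for the other RWPE1-ERG peaks. The 70 sites had a median width of 890.5 bp, a median fold enrichment of 8.11 in RWPE1-ERG cells (2.48 to 60.9) and 8.62 in RWPE1-vector cells (2.46 to 38.7). They made up all 12 of the highest shared sites and 27 of the 30 highest. A fold enrichment of at least 10 in both lists was found at 26 sites, 24 of them at small RNA genes. The others were a long noncoding RNA gene between U3 genes, chr17:19014652-19016474 (17.9 in RWPE1-ERG and 27.1 in RWPE1-vector cells), and a site in CROCC, chr1:17231293-17232822 (14.2 and 15.9).

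U1 RNA, which recognizes the 5′ splice site, was the family with the most sites. Its 31 sites had fold enrichments of 2.93 to 33.9 in RWPE1-ERG cells (median 9.90) and 2.46 to 33.2 in RWPE1-vector cells (median 9.85). The highest lay at RNU1-27P (33.9 and 33.2), RNU1-2 at chr1:17221866-17223805 (31.5 and 22.0), RNVU1-18 (29.5 and 20.2), RNU1-3 (24.9 and 20.6) and RNVU1-14 (24.4 and 18.8). The gene RNU1-1 was itself outside the peaks, with a shared site to either side at chr1:16839399-16839846 (9.63 and 4.83) and chr1:16841412-16841819 (5.65 and 3.18). Of the 135 annotated U1 genes and pseudogenes, 25 (18.5%) had a shared site within 1 kb. Narrow sites beside RNU1-2 and RNU1-3 carry the vector values of the large peaks they touch, 22.0 and 20.6, against 4.16 and 4.36 in RWPE1-ERG cells.

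The U5 family, the RNAs that hold the exons during splicing, had 8 sites and the same number of its 31 annotated genes (25.8%). Fold enrichment ran from 7.58 to 26.3 in RWPE1-ERG and from 4.22 to 24.3 in RWPE1-vector cells, and all 8 were open in RWPE1-ERG cells. The highest were RNU5B-1 at chr15:65596285-65598007 (26.3 and 23.1), RNU5F-1 (22.7 and 17.2) and RNU5A-1 (22.5 and 13.8). The 5 sites at U2 genes, whose RNA pairs with the branch point, ran from 5.66 to 12.9 in RWPE1-ERG and from 7.39 to 28.1 in RWPE1-vector cells. The vector value was the higher at each U2 site, for example 28.1 against 12.9 at RNU2-2P and 24.0 against 10.4 at RNU2-59P. At the U4 pair RNU4-2 and RNU4-1 the values were 23.0 and 22.2.

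The RNAs of the minor spliceosome, which removes a rare class of introns, were also present. RNU11 had fold enrichments of 22.7 in RWPE1-ERG and 20.9 in RWPE1-vector cells, RNU12 had 6.62 and 9.23, and RNU4ATAC at chr2:122287828-122288953 had 7.63 and 16.6. RNU7-1, whose RNA trims histone mRNA ends, had 12.6 and 10.9.

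Among nucleolar RNAs, the U3 genes had the highest values of all shared sites. A site of 4552 bp at SNORD3A and SNORD3C, chr17:19090113-19094664, had 60.9 in RWPE1-ERG and 29.9 in RWPE1-vector cells, and the site at SNORD3B-1 and SNORD3B-2 had 45.5 and 38.7. SNORD118, the U8 gene, had 19.4 and 24.9 and SNORD13 had 6.41 and 6.77. The remaining 10 snoRNA sites each overlapped another gene as well, and they were low, at 2.91 to 5.01 and 3.08 to 4.06.

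Few of the RNA polymerase III genes counted here had a shared site, and tRNA genes were not counted. Most annotated copies in these families are pseudogenes. Of RNU6-1, RNU6-2, RNU6-7, RNU6-8 and RNU6-9, only RNU6-2 had a shared site. Of 1325 annotated U6 genes and pseudogenes, 1 (RNU6-2) had a shared site within 1 kb, at 5.98 and 5.54, and 37 had a vector-only peak. None of the 295 7SK, 856 7SL, 858 Y or 5 vault RNA genes and pseudogenes had a shared site, and neither did RN7SK itself nor RMRP. RPPH1, placed by its locus in the expression table, had a low site (3.31 and 4.31), and the 5S gene RNA5S2 had 4.09 and 3.69. Of 41 annotated U6atac genes and pseudogenes 1 had a shared site, at the pseudogene RNU6ATAC38P (2.48 and 3.07). Apart from these RNA polymerase III families, no scaRNA gene of 49 had a shared site.

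Histone genes within 1 kb of a shared site numbered 33 of 65 annotated. Of the 33 sites, 21 lay on chromosome 6 and 10 on chromosome 1, and 2 elsewhere. Their fold enrichment was even, with a median of 4.28 in RWPE1-ERG (2.86 to 7.57) and 4.31 in RWPE1-vector cells (2.43 to 7.39). The highest covered the histone H4 gene H4C15 at chr1:149832375-149832958 (7.57 and 5.54). The chromosome 6 cluster chr6:26020913-26285685 held 15 shared sites, 13 of them open, beginning with a site at H3C1 and H4C1 (5.33 and 4.31). A cluster at chr1:149804143-149859085 held 11 sites, 9 of them open.

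Other shared sites clustered too. A further shared site lay within 100 kb of 487 of the 875, which formed 150 groups, and 19 groups had 5 or more sites. The largest groups, with 18 sites each, spanned chr11:65186588-65275282 over NEAT1 and MALAT1 and chr20:60879515-60953985 over LAMA5, ADRM1 and RPS21. Next came 13 sites beside DDIT4 and DNAJB12 on chromosome 10 and 12 beside KRT7 and KRT80 on chromosome 12. By chromosome, the most shared sites lay on chr1, 140 or 16.0%, against 581 of the other 4845 RWPE1-ERG peaks and 8.93% of the vector-only peaks. The shares of shared sites, other RWPE1-ERG peaks and vector-only peaks were 9.94%, 9.14% and 5.19% on chr9, 8.34%, 5.86% and 3.00% on chr20, and 8.23%, 5.08% and 3.36% on chr17. Chromosome X held none of the shared sites and 8 of the other RWPE1-ERG peaks (0.165%).

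MALAT1, a nuclear long noncoding RNA, was the nearest gene of 12 shared sites, and those that overlapped its locus covered 54.6% of it. Fold enrichment at the 12 sites ran from 2.48 to 6.41 in RWPE1-ERG and from 2.68 to 7.29 in RWPE1-vector cells. Of the 12 sites, 1 was open. NEAT1, the RNA scaffold of paraspeckles, had 6 sites, 4 of them open, at 4.09 to 5.25 and 3.22 to 8.29. The FPKM of MALAT1 was 114 in vector, 172 in ERG, 117 in mAKT and 180.0 in ERG+mAKT cells, and that of NEAT1 was 206, 184, 240.2 and 269.

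LAMA5, a laminin chain of the basement membrane, was the nearest gene of 12 sites, of which 2 were open. Some lay upstream of the gene, and those that overlapped its locus covered 5.01% of it. KRT7, a simple-epithelial keratin, had 8 sites, of which 7 were open. A site in KRT7 at chr12:52634775-52635754 had 11.4 in RWPE1-ERG and 3.99 in RWPE1-vector cells. MIR205HG, the host gene of a basal epithelial microRNA, was covered over 77.4% of its locus by 3 of its 6 sites. DDIT4, a stress-induced inhibitor of mTORC1, had 6 sites, 4 of them open. The FPKM in vector, ERG, mAKT and ERG+mAKT cells was 57.0, 62.7, 63.2 and 63.3 for LAMA5, and 2463, 4356, 2082 and 2124 for KRT7. It was 228, 373, 287 and 274 for MIR205HG and 613, 368, 885 and 650 for DDIT4. No 1 line was the highest for all 4 genes.

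**Figure D3:**
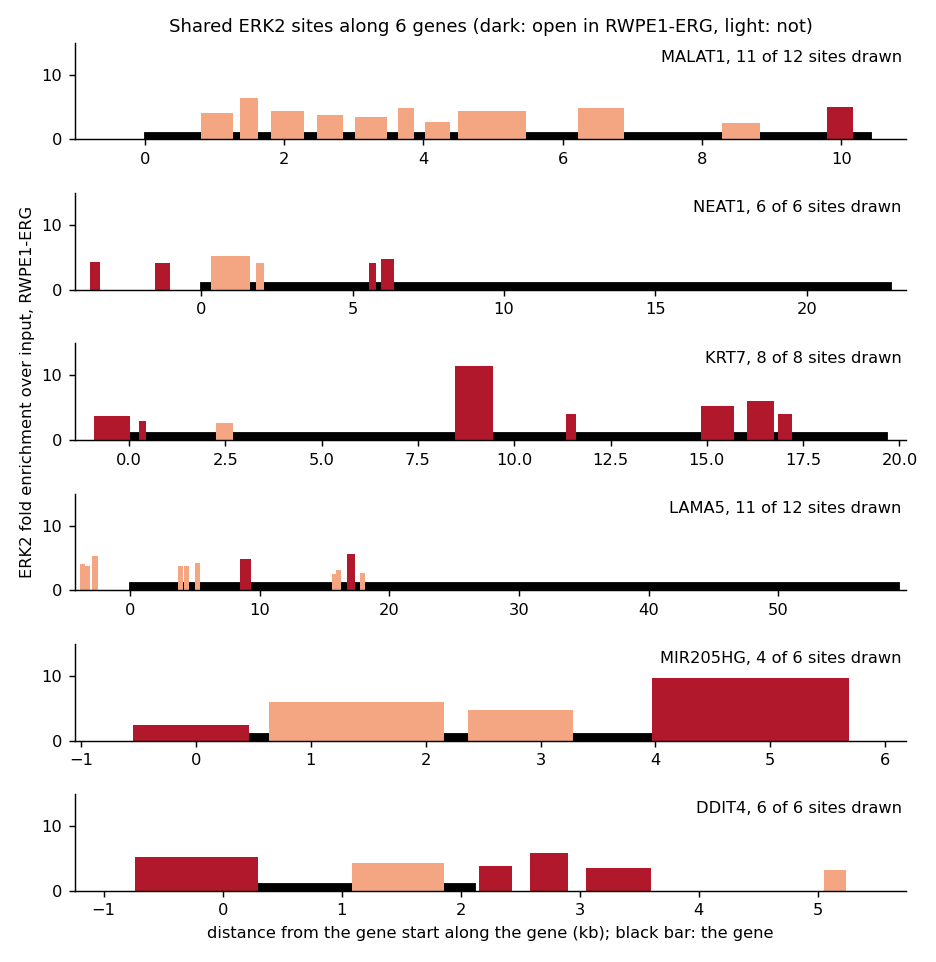
Shared ERK2 sites along MALAT1, NEAT1, KRT7, LAMA5, MIR205HG and DDIT4, by distance from the gene start in the direction of transcription (kb, x axis) and fold enrichment in RWPE1-ERG cells (y axis), with the gene as a black bar, open sites dark and sites not open light. Sites far upstream are not drawn, so 11 of 12 appear for MALAT1 and LAMA5 and 4 of 6 for MIR205HG. The MALAT1 sites run along the whole gene with 1 open, while 7 of 8 KRT7 sites are open.

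Altogether 40 genes were nearest to 3 or more sites, and they took 177 of the 875 sites. Among them were SDC4 (syndecan 4, 5 sites), TNS4 (tensin 4, 5), RXRA (a retinoid receptor, 7), ZMYND8 (a chromatin reader, 7), MT2A (a metallothionein, 4) and KLF6, SFN, DKK1, SLC7A5 and TXNRD1 (3 each). Of the 40, 32 reached 1 FPKM in RWPE1-vector or RWPE1-ERG cells, with a median of 66.4 FPKM in RWPE1-ERG cells, and 40.6% of them (25.5 to 57.7%) reached 100 FPKM, where all genes past the filter had a median of 10.8 and 8.97% reached it.

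Open chromatin, as ATAC-seq peaks in RWPE1-ERG cells, covered 573 of the 875 shared sites, 65.5% (62.3 to 68.6%). It covered 36.7% of the other RWPE1-ERG peaks and 7.80% of the vector-only peaks. The shares in RWPE1+mAKT cells were 67.2%, 37.5% and 8.05%, and in RWPE1-ERG+mAKT cells 61.1%, 34.3% and 6.11%. All 3 lines were open at 57.4% of the shared sites and none at 29.0%, against 31.0% and 58.4% for the other RWPE1-ERG peaks. At the summit alone the shares in RWPE1-ERG cells were 56.3%, 30.3% and 5.99%. Among peaks under 250 bp, where widths are alike, 186 of 312 shared sites (59.6%) and 951 of 3187 other RWPE1-ERG peaks (29.8%) were open. The open chromatin of RWPE1-vector cells was not analysed here.

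By class, the open share was highest at histone genes (87.9%, 72.7 to 95.2%), followed by small RNA genes (74.3%, 63.0 to 83.1%), gene starts (71.8%), other sites in protein-coding genes with the summit outside exons (65.8%), sites with no gene (65.4%), long noncoding RNA genes (61.1%) and exons (39.2%). The 12 highest sites, all at small RNA genes, were open in all 3 lines. The highest site at a gene start, 8.35 and 6.15 near SAV1 (a scaffold of the Hippo pathway), was open in all 3 lines, as were the highest exon site, in FAM83A (5.41 and 4.59), and the highest site with no gene, chr17:41393058-41393676 (8.35 and 2.90).

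**Figure D4:**
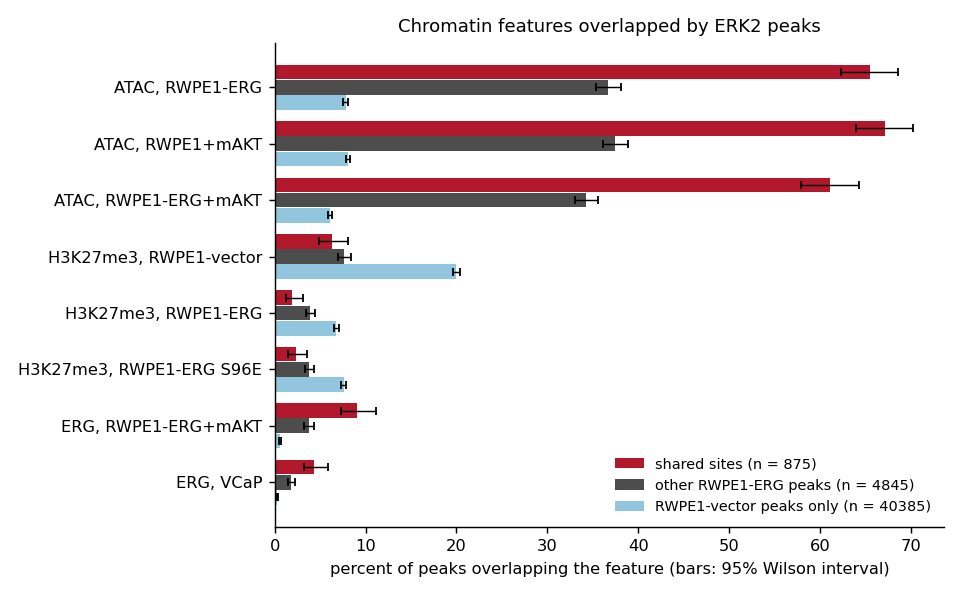
Percent of shared sites (red, n = 875), other RWPE1-ERG peaks (black, n = 4845) and vector-only peaks (light blue, n = 40385) that overlap an ATAC-seq peak, an H3K27me3 region or an ERG peak of the line named, with 95% Wilson intervals as bars. Shared sites are the highest of the 3 sets for each ATAC-seq and ERG list and the lowest for each H3K27me3 list. For H3K27me3 in RWPE1-vector cells their interval includes the share of the other RWPE1-ERG peaks.

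H3K27me3, the repressive mark that PRC2 deposits, was rare at shared sites. It covered 6.29% (4.86 to 8.09%) of them in RWPE1-vector cells, 1.94% (17 sites, 1.22 to 3.09%) in RWPE1-ERG cells and 2.29% (1.48 to 3.50%) in RWPE1-ERG S96E cells. The shares were 7.64%, 3.90% and 3.80% for the other RWPE1-ERG peaks and 20.0%, 6.77% and 7.57% for the vector-only peaks. In RWPE1-vector cells the interval of the shared sites included the share of the other RWPE1-ERG peaks. The H3K27me3 lists held 492265, 228233 and 252784 regions, and the part of list size in the differences between lines was not tested. Of the 17 sites, 13 were also marked in RWPE1-vector cells, 10 in all 3 lines, and 6 were open in RWPE1-ERG cells.

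Peaks of ERG itself, in the line with ERG and mAKT, met 79 shared sites, 9.03% (7.30 to 11.1%), against 3.76% of the other RWPE1-ERG peaks and 0.592% of the vector-only peaks. VCaP ERG peaks overlapped 38 shared sites, 4.34%, against 1.82% and 0.262%, and 6 sites had both. Of these 38, 12 were at small RNA genes (17.1% of the 70) and 4 at histone genes (12.1% of the 33). The share was 1.86% at sites in protein-coding genes with the summit outside exons, so it was uneven between classes. Of the 79 sites, 74 were open in RWPE1-ERG cells. Within open sites alone the share that met one of these ERG peaks was 12.9% for shared sites and 8.54% for the other RWPE1-ERG peaks. The highest open sites with such an ERG peak were those at SNORD3A, RNU1-27P, RNU1-3 and RNU4ATAC, a site in SQSTM1, the gene of an autophagy receptor (8.74 and 4.92), and a site in a long noncoding RNA gene on chromosome 8, 66492 bp from the start of MYC (6.47 and 6.76). No ERG peaks from RWPE1-ERG cells without mAKT were analysed here.

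Within 100 bp of the summit, on either strand, TGACTCA or TGAGTCA was present at 77 shared sites, 8.80% (7.10 to 10.9%), against 7.55% of the other RWPE1-ERG peaks and 3.78% of the vector-only peaks. Windows of the same length 1 kb to either side held it in 3.54%, 3.26% and 3.09%. Within open sites the shares were 10.6% for shared sites and 12.8% for the other RWPE1-ERG peaks, the opposite order. Sites in protein-coding genes with the summit outside exons (13.8%) and long noncoding RNA genes (13.7%) held it most often, while 2 of 70 small RNA sites and 0 of 33 histone sites did. A count of 0 of 33 allows a share of up to 10.4% by the Wilson interval. Of the 77 sites, 79.2% were open and 23.4% (18 sites) met an ERG peak of the line with ERG and mAKT, against 62.3% and 9.29% of the other RWPE1-ERG peaks with the sequence.

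The ETS sequence AGGAAGTG or CGGAAGTG was present at 22 shared sites, 2.51% (1.67 to 3.78%), against 2.75% of the other RWPE1-ERG peaks, 1.43% of the vector-only peaks and 2.00% of the flanking windows of shared sites. GGAAGTGA, the ETS/AP-1 sequence, which overlaps it, was present at 18, 2.06% (1.31 to 3.23%), against 1.47%, 1.08% and 0.857% in the same order, the opposite order for the other RWPE1-ERG peaks. The ETS sequence CCGGAAGT was present at 6, 0.686%, against 0.599%, 0.111% and 0.400%. The octamer ATGCAAAT, an element known from snRNA and histone promoters, was present at 10 sites, 1.14%, against 1.36% and 2.31%. GGGCGG, the core of SP1 sites, was present at 94, 10.7%, against 7.93% and 2.12%, and in 13.1% of the flanking windows. The CArG box of SRF was present at 8 sites, 0.914%, against 1.03% and 1.25%, and in 1.37% of the flanking windows. The ZNF143 and CTCF sequences searched were in none of the 875 windows, which allows a share of up to 0.437% by the Wilson interval, nor was the CTCF sequence in those of the other RWPE1-ERG peaks, where 3 held the ZNF143 sequence. That these letters were absent says nothing about the factors. The median GC content of the windows was 53.7% at shared sites, 48.3% at other RWPE1-ERG peaks and 38.3% at vector-only peaks, so shares of GC-rich letters differ in base composition too.

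By the loci of the expression table, the shared sites had 639 distinct nearest genes, and 511 sites overlapped the locus and 739 were within 10 kb. Of these genes, 506 had at least 1 FPKM in RWPE1-vector or RWPE1-ERG cells. Their median was 22.2 FPKM in RWPE1-ERG cells, against 15.7 for the genes nearest to other RWPE1-ERG peaks, 10.6 for those nearest to vector-only peaks and 10.8 for all 12375 genes that passed the same filter. At least 100 FPKM was reached by 18.6% (15.4 to 22.2%) of the 506, and by 12.4%, 7.72% and 8.97% of the other sets. Median locus length was 30439 bp, against 33044 bp for all. The 10 highest within 10 kb included the metallothionein MT2A (19639 FPKM in RWPE1-ERG cells), the ribosomal proteins RPS21 (10345), RPL26 (3819.6) and RPS13 (2168), the calcium-binding S100A2 (4523) and S100A11 (1992), the keratin KRT7 (4356), RPPH1 (3092), the elongation factor EEF1A1 (2936) and SNHG25 (2292). The FPKM are pooled over libraries, so the spread between libraries was not analysed here and no test was run.

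The median log2 ratio of RWPE1-ERG over RWPE1-vector cells, on FPKM + 1, was 0.08 for the 506 genes and −0.01 for all genes. A ratio of at least 2 was found for 32 of the 506, 6.32% (4.51 to 8.79%), where 3.66% of all genes passed it. A ratio of 0.5 or less was found for 2, 0.395% (0.108 to 1.43%), where 0.994% of all genes did. Of the 32, 17 were histone genes and 3 were small RNA genes, and without both kinds 12 of 482 genes (2.49%) passed, against 2.04% of all genes without them. In RWPE1-mAKT cells 2 genes (0.402%) were at least 2-fold higher and 3 (0.604%) lower than in RWPE1-vector cells, where 1.18% and 0.840% of all genes were. In RWPE1-ERG+mAKT cells 7 (1.41%) were higher and 6 (1.21%) lower, where 2.98% and 1.10% of all genes were. These comparisons share the RWPE1-vector libraries. Genes nearest to an open site had a median of 24.1 FPKM in RWPE1-ERG cells, and those nearest to a site that was not open 24.5. Of these sets, 8.08% (29 of 359) and 3.40% (7 of 206) were at least 2-fold higher in RWPE1-ERG than in RWPE1-vector cells. A gene with sites of both kinds counted in both sets. Histone genes, whose sites were 87.9% open, were not set apart in this comparison.

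**Figure D5:**
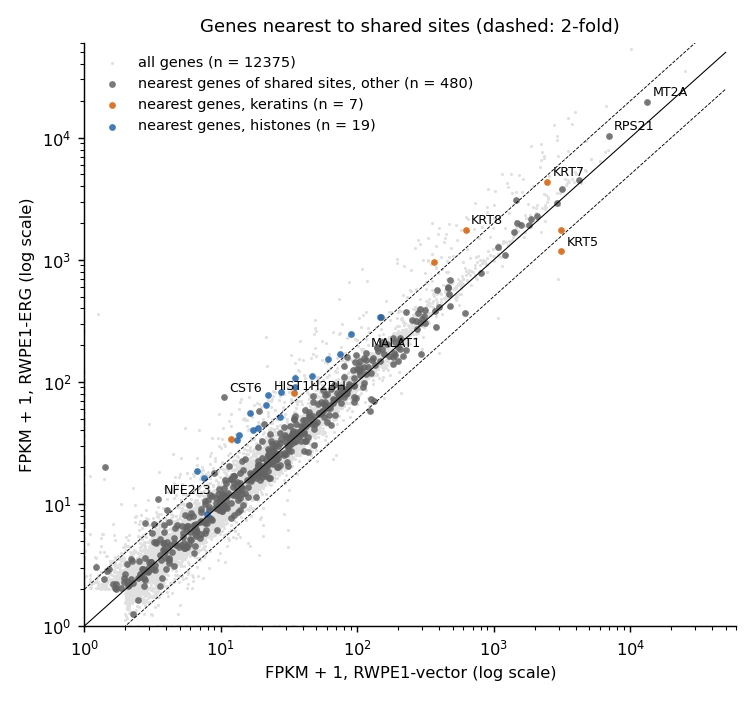
Pooled FPKM + 1 in RWPE1-vector (x axis) and RWPE1-ERG cells (y axis), on log scales, for all 12375 genes past the filter (light grey) and for the 506 nearest genes of shared sites (dark grey, with keratins in orange and histone genes in blue). The solid line marks equal values and the dashed lines a 2-fold ratio, above which 17 of the 19 histone genes lie.

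The 19 histone genes nearest to a shared site and past the filter had a median log2 ratio of 1.34 in RWPE1-ERG over RWPE1-vector cells, and 17 of them were at least 2-fold higher. Of all 58 histone genes past the filter, 48 were at least 2-fold higher, with a median of 1.43. A shared site lay within 20 kb of 51 of these, of which 43 were higher (median 1.36), and of the 7 without one 5 were higher (median 1.48). The core histone gene HIST1H2BH was at 21.3 FPKM in vector, 76.9 in ERG, 19.2 in mAKT and 29.0 in ERG+mAKT cells. The linker histone gene HIST1H1B was at 15.5, 54.4, 9.75 and 23.7. Over RWPE1-vector cells the 19 genes had a median log2 ratio of −0.42 in mAKT and 0.27 in ERG+mAKT cells. The libraries were poly(A)-selected, and most histone mRNA and small RNA lacks a poly(A) tail. How that selection bore on these values was not tested.

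Of the 253 small RNA genes of the table that passed the filter, 154 were at least 2-fold higher and 13 lower in RWPE1-ERG cells, with a median log2 ratio of 1.23. Of the 59 with a shared site within 20 kb of the locus 39 were higher and 1 lower, and of the 194 without one 115 were higher and 12 lower. Most of these loci are merged with a host gene, and the 40 genes with a locus of their own under 1 kb had 24 higher, 5 lower and a median of 1.33. RNU11 was at 148 FPKM in vector, 338 in ERG, 173 in mAKT and 229 in ERG+mAKT cells, and RPPH1 at 1467, 3092, 471 and 1515. RNVU1-20, a U1 variant, was at 0.420, 19.2, 6.90 and 2.06.

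Among the other nearest genes, the largest ratios of FPKM (with no pseudocount) were those of CST6, a cystatin protease inhibitor, at 9.51 FPKM in vector and 74.3 in ERG cells, and NFE2L3, a CNC-family transcription factor, at 2.49 and 10.0. The long noncoding RNA UCA1 was at 18.0 and 56.7, and COL5A1, a fibrillar collagen chain, at 1.79 and 5.98. The site at the start of CST6 (2.93 in RWPE1-ERG and 3.08 in RWPE1-vector cells) was not open in RWPE1-ERG cells, while those at NFE2L3, UCA1 and COL5A1 were. The lowest ratios were those of KRT5 (3126 and 1169.8) and TRIM29 (122 and 56.8), both 2-fold or more lower. FKBP5 (131 and 69.3), the integrin ITGA6 (125 and 70.9), the keratin KRT17 (3105 and 1768) and MAST4 (5.35 and 2.94) came next, within 2-fold.

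Keratin genes were looked at as a list after their values had been seen. There were 55 keratin genes listed, of which 14 passed the filter and 9 of those had a shared site within 20 kb (16.4% of the 55, against 5.91% of all 25839 genes of the table on these chromosomes). Neighbouring genes had sites in common, namely KRT13, KRT15 and KRT19, KRT8 and KRT18, and KRT16 and KRT17, so the 9 were not separate counts. Another RWPE1-ERG peak lay within 20 kb of 13 of the 55. Among the 9, the simple-epithelial keratins KRT8 (622 FPKM in vector and 1769 in ERG cells), KRT18 (817 and 1843) and KRT19 (367 and 956) and the keratins KRT15 (33.3 and 80.3) and KRT13 (4.10 and 9.76) were at least 2-fold higher. KRT5 and KRT16 (28.1 and 7.25) were at least 2-fold lower, and KRT7 and KRT17 were within 2-fold. Of the 5 without a site within 20 kb, KRT80 (10.8 and 32.8) was at least 2-fold higher. The closest site assigned to KRT80 was 20230 bp away, just past that limit. KRT14 (2936 and 699.5) and KRT6A (1075 and 331) were at least 2-fold lower, and KRT10 and KRT6B were within 2-fold. The sites at KRT5, chr12:52914062-52914598 (4.09 in RWPE1-ERG and 6.15 in RWPE1-vector cells) and chr12:52916275-52916894 (4.47 and 4.92), were both open, and the latter met an ERG peak of the line with ERG and mAKT.

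Over all 25839 genes the share with a shared site within 20 kb was 5.91%, and 5924 of these genes had another RWPE1-ERG peak there. Of the 12241 with at least 1 FPKM in RWPE1-vector or RWPE1-ERG cells, 1052 had a shared site within 20 kb. Most members of the lists below passed that minimum. Their shares were compared with that of all 25839 genes, without a test. Of 29 genes on the immediate-early and ERK-response list, 7 (24.1%, 12.2 to 42.1%) had a shared site within 20 kb. They were FOSB, JUNB, IER5, MYC and KLF6, and the long noncoding RNAs MALAT1 and NEAT1, which the list also included. Another RWPE1-ERG peak lay within 20 kb of 17 of the 29, so such nearness was not particular to shared sites. On FPKM + 1, none of the 7 was past 2-fold. The FPKM in vector and ERG cells was 111 and 97.3 for the AP-1 gene JUNB and 181 and 138 for MYC. It was 58.9 and 78.6 for KLF6 and 43.0 and 52.6 for IER5. FOSB, at 2.61 and 1.15, was within 2-fold only through the added 1. The JUNB gene had 2 sites, of which the lower (3.40 and 3.08) was open. The sites at the starts of MYC (5.25 in RWPE1-ERG and 3.08 in RWPE1-vector cells), KLF6 (5.01 and 5.31) and IER5 (3.08 and 3.86) were open, and the FOSB site (2.93 and 4.31) was not. None of 15 ERK feedback genes, such as the DUSP phosphatases and the SPRY and SPRED inhibitors, had a shared site within 20 kb, where a count of 0 allows a share of up to 20.4% by the Wilson interval, above that of all genes. Another RWPE1-ERG peak lay there for 5 of them.

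Of 23 migration and EMT genes, 6 (26.1%, 12.5 to 46.5%) had a shared site within 20 kb. They were the integrins ITGA2, ITGA3 and ITGB4, ENC1 and the metalloproteases MMP1 and MMP10, with the same site counted for both metalloproteases. The 4 that passed the filter were within 2-fold, with a median log2 ratio of −0.14, against 0.42 for the 15 list members without a site. ITGB4, the hemidesmosome integrin, was at 379 FPKM in vector and 283 in ERG cells. Another RWPE1-ERG peak lay within 20 kb of 10 of the 23 genes.

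Among 82 cytosolic ribosomal protein genes, 17 (20.7%, 13.4 to 30.7%) had a shared site within 20 kb and 8 (9.76%) were the nearest gene of one, against 2.47% of all genes. Of the 82, 79 passed the FPKM filter. Among all genes past it, 1052 of 12241 had a shared site within 20 kb and 506 of 12375 were nearest to one, so the all-gene share is a low baseline. Another RWPE1-ERG peak lay within 20 kb of 41 of the 82. The highest shared site of this list, 6.41 and 4.92, lay near RPL23A and TLCD1. None of the 17 was past 2-fold, and their median log2 ratio was 0.28, against 0.23 for the other 62 that passed the filter. Of 13 genes for the factors that transcribe snRNA genes, SNAPC4, SNAPC5 and POLR3GL (23.1%, 8.18 to 50.3%) had a shared site within 20 kb, all within 2-fold. POLR3GL had 9 such sites because its locus in the table is merged with distant genes. Another RWPE1-ERG peak lay within 20 kb of 7 of the 13.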

How the data were processed

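ERK2 ChIP-seq peaks were compared between RWPE1-vector and RWPE1-ERG cells, with ATAC-seq, H3K27me3 and ERG peak lists and RNA-seq of 4 lines. Reads were aligned to hg19 with Bowtie2, duplicates were removed, and peaks were called against input with MACS2 by the authors. For each peak the deposited lists give the pileup signal, the fold enrichment, and p-value and q-value as −log10. The fold enrichment is that of MACS2, taken against a background modelled with the input, so it is not a plain ratio of ChIP to input reads. The ERK2 headers name version 2.1.2 and a p-value limit of 0.01, whereas the methods give 0.001. DNA of 3 ChIP experiments was pooled into each library. The deposited Cuffdiff table gives FPKM pooled by the authors over 3 libraries a line, and its fold changes, test statistics, p-values and q-values were not used. The lists attached to the VCaP input and to ERG ChIP after LY294002 name other experiments in their own headers or peak names and were not used here.

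Overlap means 1 bp. A site was put in the first class that applied, in the order of a small RNA gene within 1 kb, a histone gene within 1 kb, a protein-coding gene start within 1 kb, summit in a protein-coding exon, overlap of a protein-coding gene, of a long noncoding RNA gene, of any gene, and none. Where a site met several vector peaks, the one with the lowest p-value gave the vector values. Genes were those of GENCODE release 44 on GRCh37, with small RNA genes of the expression table added. Nearest genes were taken by the table's loci. At 302 sites several loci were equally near, and the gene whose annotation was nearest, then the shorter, was taken. Loci that Cuffdiff merged can make a gene appear nearest over long distances. An FPKM of 1 in either line was the minimum for a gene to be kept, and ratios used FPKM + 1. No test was run, since ERK2 had 1 library a line and the FPKM used are pooled over libraries, so counts, medians and 95% Wilson intervals are given.

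The members and lists were chosen with earlier results of these data known, and the keratin list after its values were seen. Named sites are the 12 highest, the highest of each class, those within 20 kb of listed genes, the 6 highest open sites with an ERG peak or an AP-1 sequence, and the densest clusters. Named genes are listed genes, the 6 highest and lowest ratios of FPKM, with no pseudocount, within 10 kb (FPKM of at least 5 in the higher and above 0.5 in the lower line), the 10 highest FPKM and those with 3 or more sites. Others were chosen after their values were seen. Code was tested on simulated intervals, with 0 differences from direct counts over 400 intervals. The software was samtools 1.23.1, pysam 0.24.0, pandas 2.3.3 and numpy 2.4.6 under Python 3.11.15.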

Additional observations from a re-analysis of the deposited data

How the results depend on the processing

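No paired analysis was possible because each line had 1 ERK2 library and the FPKM are pooled over libraries, and no library could be left out for the same reason. Of 41 alternative values over 12 results, 21 stayed within their counting interval or 1.5 times the count and 20 moved. Only the median log2 ratio could turn its direction, since the other results cannot be negative, and it did not. The 875 shared sites fell to 581 with the summit required inside the vector peak, 432 with equal numbers of top peaks and 70 where both peaks passed a q-value of 0.01. The small RNA share of 8.00% became 5.94% for overlap of the gene, 2.56% for sites under 250 bp and 61.4% at that q-value. The gene start share of 24.3% became 43.4% within 5 kb and 39.5% for all genes. The open share of 65.5% became 57.5% with the 33000 ATAC-seq peaks of lowest p, 56.2% for at least 50% of the site, 56.3% at the summit, 59.6% under 250 bp and 69.1% with −log10 p of at least 3. Within 50 bp of the summit, AP-1 fell from 8.80% to 5.14% and AGGAAGTG or CGGAAGTG from 2.51% to 1.03%. ERG peaks that passed a q-value of 0.01 met 2.74% of the sites, against 9.03% for all ERG peaks. Without the FPKM filter, the median FPKM was 12.8 in place of 22.2 (all genes 0.481) and the median log2 ratio 0.04 in place of 0.08. The 32 genes at least 2-fold higher became 12 without histone and small RNA genes, and the 2 lower became 5 with a pseudocount of 0.1 (all genes 1.81%). The settings under 250 bp, at the summit and without histone and small RNA genes were chosen after seeing the data.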
